A study of Homo sapiens with 4 samples.

Results

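Single cells caught in the first part of S phase were compared in their replication states. They came from HCT116, an established line of human colorectal cancer cells, and from DKO1, its derivative with knockout of the DNA methyltransferase genes DNMT1 and DNMT3B. S-phase progress of a cell is its replicated bins as a percent of all bins called in it, and the cells described here, called early cells, were chosen by that value as those under 40%. They were 142 of 529 S-phase cells, 87 of 322 from HCT116 and 55 of 207 from DKO1. Both lines were grown in the same medium, stained with a DNA dye and sorted by DNA content, and sorted fractions from the start, middle and end of S phase were pooled before loading on a droplet copy-number system. Each line is 1 S-phase library and DKO1 is a single derived line, so differences between libraries, cultures or clones cannot be told apart from the knockout, and no test between the lines was made.

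DNA replication starts at many origins, and neighbouring origins tend to be used together, so that a chromosome is copied in domains. Gene-rich, open chromatin is usually copied early in S phase and gene-poor heterochromatin late. DNMT1 copies DNA methylation onto the new strand behind the fork, and DNMT3B can methylate unmethylated sites. In the first part of S phase the earliest domains have been copied, the next ones are in progress, and the late ones are normally not yet copied, so an out-of-turn domain is easiest to see there.

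Progress was the value that chose the cells. It ran from 17.0% to 39.8% in HCT116 (median 31.1%) and from 9.32% to 39.7% in DKO1 (median 35.4%). The nearest cells left out stood at 40.3% in HCT116 and 40.01% in DKO1. Only 4 HCT116 cells and 1 DKO1 cell were under 20%, so the very start of S phase was hardly covered. For comparisons at like progress, cells at 20 to 30% (34 HCT116 and 12 DKO1 cells) and at 30 to 40% (49 and 42 cells) were weighted equally. The percent of cells in which a bin was replicated, averaged over both strata, is called the matched share. Within the strata DKO1 cells were slightly further on, with a weighted mean progress of 31.6% against 30.7%, and the matched share over all bins was 32.3% in DKO1 and 31.8% in HCT116, a gap of 0.54 points to keep in mind below.

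The deposited values are state codes, each for 1 cell and 1 bin of 80 kb, and the read depth behind a code is unknown. Code 2 was read as replicated, code 1 as unreplicated and code 0 as not called. A call holds for the whole bin of the cell, so a bin copied on only 1 of the homologous chromosomes cannot be seen as such. Code 0 took 1.22% of the calls of early HCT116 cells and 2.91% of those of early DKO1 cells. It took at most 1% of a cell's bins in 59 of 87 HCT116 cells and in 17 of 55 DKO1 cells, called low-code-0 cells below. Bins called in at least 90% of the early cells of each line were used, 26236 of 27704 bins on 22 autosomes. The filter left out 494 bins of chromosome 13, 369 of chromosome 3, 336 of chromosome 4 and 140 of chromosome 14. Chromosome 8 had only 21 bins in the deposited table, of which 11 were used, so it was hardly covered. Cells are not replicates. SDs over cells and exact binomial (Clopper-Pearson) 95% intervals describe the spread and counting error of these cells only.

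The first question was which domains are copied first. Both lines began largely in the same places, and DKO1 had fewer places that nearly all early cells had copied. A bin was called first-replicated where its matched share was at least 90%. In HCT116 3258 bins met this limit (261 Mb, 12.4% of the bins used), and in DKO1 2600 bins (208 Mb, 9.91%). The lists shared 2249 bins, which were 69.0% of the HCT116 list and 86.5% of the DKO1 list. The 1009 bins on the HCT116 list alone had a mean matched share of 94.7% in HCT116 and 79.8% in DKO1. The 351 bins on the DKO1 list alone had 81.7% in HCT116 and 93.8% in DKO1. The limit cuts through a continuous range: in HCT116 288 bins lay within 2 points above it and 316 within 2 points below, with 344 and 348 bins in DKO1. With 12 DKO1 cells against 34 HCT116 cells at 20 to 30%, each cell weighs more in the DKO1 list.

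Runs of at least 5 first-replicated bins formed 219 domains in HCT116, of 0.4 to 4.24 Mb with a median of 0.8 Mb. In DKO1 there were 153, of 0.4 to 4.4 Mb with a median of 0.96 Mb. Of the 219 HCT116 domains, 137 also had a mean matched share of at least 90% in DKO1, 14 were under 75% and 2 under 50%, with the lowest at 21.6%. Of the 153 DKO1 domains, 133 reached 90% in HCT116, 1 was under 75%, and the lowest stood at 68.1%.

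The domain copied in the largest share of HCT116 cells at 20 to 30% was chr12:6240001-7120000 (coordinates as in the deposited table). Its mean share there was 99.2% in HCT116 and 100% in DKO1, and most of it was replicated in 85 of 87 HCT116 and 54 of 55 DKO1 early cells. The next ones in HCT116 were chr17:45200001-46320000 (99.2% in HCT116 and 91.1% in DKO1), chr22:40880001-43760000 (99.1 and 98.4%) and chr1:154880001-157120000 (99.1 and 90.8%). Ranks 5 to 9 had 98.5 to 99.02% in HCT116 and 97.5 to 100% in DKO1, and they lay on chromosomes 11, 1, 12, 9 and 12. The tenth differed more. At chr10:11680001-12480000 HCT116 had a share of 98.5% and DKO1 one of 71.8% at 20 to 30%, and 98.0% and 82.6% at 30 to 40%. Every bin called there was replicated in 75 of 87 HCT116 cells and in 27 of 54 DKO1 cells.

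In DKO1 14 domains had been copied in each of the 12 cells at 20 to 30%, with a share of 100%. The 10 longest of them are ranked by length, so their order among themselves carries no timing. The longest, at chr15:40160001-43440000, had 97.4% in HCT116. Others were chr16:3520001-5280000 (95.9% in HCT116), chr2:219040001-220480000 (94.4%) and chr6:31200001-31920000 (98.4%). A pair of them was clearly less complete in HCT116 at that stage: chr21:46160001-47360000 with 72.4%, and chr19:35840001-36640000 with 81.2%. At 30 to 40% progress these stood at 91.3% and 94.3% in HCT116 and at 92.5% and 93.8% in DKO1, so the lines were alike there. The domains were picked for their share in the 12 DKO1 cells at 20 to 30%.

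By chromosome, the first-replicated bins gathered on the same few chromosomes in both lines. They made up 44.2% (HCT116) and 36.8% (DKO1) of the bins used on chromosome 22, while chromosome 17 had 39.8% and 33.3% and chromosome 19 had 39.5% and 40.9%. On chromosome 13 they made up 1.82% and 0.454%, and on chromosome 18 1.67% and 0.417%. Chromosome 22 rests on 163 bins. Across the 21 chromosomes with at least 100 bins used, the mean matched share followed the density of protein-coding genes in the GRCh38 annotation (Spearman's rho 0.834 for HCT116 and 0.806 for DKO1, a description over chromosomes that share cells and processing). Chromosome 19, the most gene-dense, had a share of 56.5% in HCT116 and 62.7% in DKO1, 6.18 points more. At 20 to 30% progress, with 12 DKO1 cells, it was at 52.9% and 61.8%, and at 30 to 40% at 60.1% and 63.6%. The gap was thus wider in the less advanced stratum and smaller in the other. Chromosomes 11 (34.6 and 39.8%) and 13 (20.6 and 25.04%) were also higher in DKO1, by 5.19 and 4.41 points. The largest deficit was on chromosome 18, with 20.7% in HCT116 and 18.7% in DKO1, -1.98 points. In all, 12 chromosomes were higher and 9 lower in DKO1.

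Some of these chromosome values rested on single cells whose chromosome stood apart. A chromosome of a cell was called outlying where its replicated share was over 15 points from that chromosome's relation to progress over all cells of the line. Among early cells 31 of 55 DKO1 cells had at least 1 outlying chromosome, against 16 of 87 HCT116 cells. On chromosome 11 it was 14 of 55 DKO1 cells (25.5%, interval 14.7 to 39.0%), 10 of them above and 4 below, and 1 of 87 HCT116 cells. Without outlying chromosomes the difference on chromosome 11 was 0.75 points and that on chromosome 13 was 1.26 points. On chromosome 19, where 7 of 55 DKO1 cells were outlying (2 above and 5 below), it was 6.04 points, and on chromosome 22 it moved from 4.84 to 6.12 points. Whether such chromosomes reflect copy number or replication was not tested.

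The second question was the order in which domains follow each other. The lines shared most of it. Across the 26236 bins, which are not independent of each other, Pearson's r of the matched shares was 0.938 and Spearman's rho 0.894, and the median absolute difference was 4.88 points. At 20 to 30% alone rho was 0.826 and at 30 to 40% it was 0.900. To describe the sequence, each bin was given the band of progress from which on at least 50% of the line's cells had copied it. The band of all cells under 30% progress held 6523 bins in HCT116 (24.9%) and 5867 in DKO1 (22.4%). Of these 5177 were the same, 79.4% of the HCT116 bins and 88.2% of the DKO1 bins. The same band was found in both lines for 81.9% of bins, a later one in DKO1 for 11.2% and an earlier one in DKO1 for 6.93%. The bands differed most toward the end of the window. Of the 1750 bins that HCT116 took up at 35 to 40%, DKO1 took up 24.4% in the same band. Another 46.3% were copied in under 50% of the DKO1 cells at 35 to 40%. In the other direction, of 1669 DKO1 bins of that band 25.6% had the same band in HCT116 and 29.7% a later one. Bins of this band were under 50% in the band before, so a small shift moves them. The first band holds all bins from 50% up, so its closer agreement is partly built in. In the first band the cells were not matched within the band (38 HCT116 and 13 DKO1 cells, with medians of 25.9% and 27.7% progress).

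To read the order from other cells than those described, the bins were sorted into 10 equal classes by their replicated share in the cells at 40% progress or over (235 HCT116 and 152 DKO1 cells, averaged over both lines). Early DKO1 cells had copied slightly less of the early classes and more of the late ones. The earliest 30% of bins had a mean matched share of 78.8% in HCT116, and DKO1 differed by -1.96 points with 76.8%. The latest 30% had 0.974% in HCT116 and 3.06% in DKO1, 2.09 points more or 3.15 times as much. In cells at 30 to 40% progress class 1 stood at 96.0% in HCT116 and 94.3% in DKO1, class 3 at 73.6% and 70.5%, class 6 at 13.97% and 18.5%, and class 8 at 2.001% and 5.84%. The crossing point lay at class 5, with 28.8% and 30.3%. Without matching of progress the earliest 30% differed by 0.625 points in the other direction, so the sign of that small deficit depends on the matching.

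**Figure D1:**
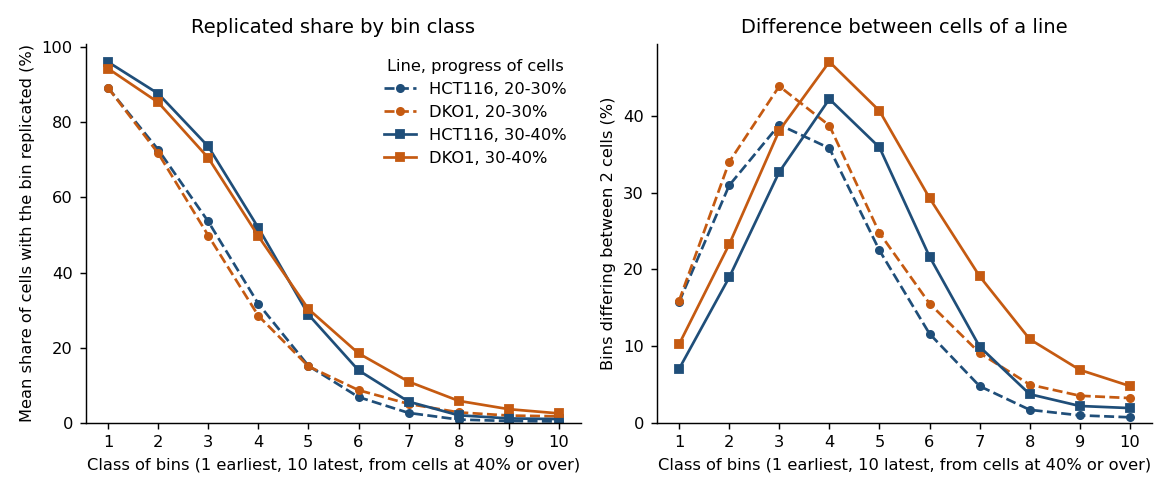
Left, mean share of cells in which a bin was replicated (percent) in 10 equal classes of bins, from 1 (earliest) to 10 (latest) as ordered in cells at 40% progress or over, for cells at 20 to 30% (dashed) and 30 to 40% (solid) of HCT116 (blue) and DKO1 (orange). Right, mean percent of bins in unlike states in pairs of cells from 1 line, at most 5 points of progress apart. DKO1 lies above HCT116 in classes 6 to 10 in both panels.

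Some copying of late DNA was more frequent among DKO1 cells. At 30 to 40% progress the latest 30% of bins was replicated in 0.0635% of bins in the lowest, 0.737% in the median and 8.68% in the highest of 49 HCT116 cells. In 42 DKO1 cells the lowest was 0.457%, the median 2.98% and the highest 13.4%. The groups overlapped, with the DKO1 median above the third quartile of HCT116 (1.68%). More than 1% of these late bins was replicated in 36 of 42 DKO1 cells (85.7%, interval 71.5 to 94.6%) and in 20 of 49 HCT116 cells (40.8%, 27.0 to 55.8%). In the stratum at 20 to 30% it was 8 of 12 DKO1 cells (66.7%, 34.9 to 90.1%) and 5 of 34 HCT116 cells (14.7%, 4.95 to 31.1%). The limit of 1% was chosen with earlier results known. At a limit of 5% it was 13 of 55 early DKO1 cells (23.6%, 13.2 to 37.02%) and 3 of 87 early HCT116 cells (3.45%, 0.717 to 9.75%). Without outlying chromosomes the mean shares were 0.65% in HCT116 and 1.90% in DKO1, a gap of 1.25 points. In the low-code-0 cells, compared at 30 to 40% only since DKO1 had 3 of them at 20 to 30%, the mean over cells was 0.717% in HCT116 and 2.06% in DKO1.

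The step at the edges of early domains was less steep in DKO1. Early domains were defined in the cells at 40% or over, as runs of at least 10 bins in which the share, averaged over both lines, was at least 90%. There were 262, with a median of 1.6 Mb, and 418 borders had a neighbouring bin that could be used. In cells at 30 to 40% progress, the bins centred 0.2 Mb outside a border were replicated in 23.2% of HCT116 and 34.1% of DKO1 cells, and those 0.52 Mb outside in 15.9% and 22.9%. Inside the border the order was turned: 0.36 Mb inside, the shares were 86.4% in HCT116 and 81.6% in DKO1. Cells at 20 to 30% showed the same crossing, with 11.7% and 19.4% at 0.2 Mb outside and 70.9% and 66.0% at 0.36 Mb inside. The gap in the matched share was widest 0.12 Mb outside, at 9.57 points. In the cells at 40% or over the curves crossed further out: the share 0.2 Mb outside was 76.3% in HCT116 and 76.7% in DKO1. DKO1 was still higher there 0.52 Mb outside (54.99 and 60.1%) and lower 0.36 Mb inside (97.8 and 94.4%).

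**Figure D2:**
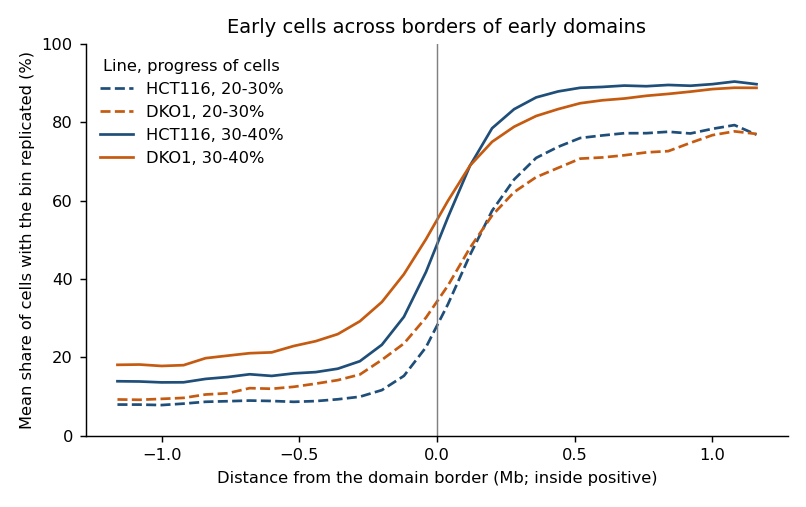
Mean share of cells in which a bin was replicated (percent) against the distance of the bin's centre from the border of an early domain (Mb, positive inside the domain), for cells at 20 to 30% (dashed) and 30 to 40% (solid) of HCT116 (blue) and DKO1 (orange). The domains were defined in cells at 40% or over, and the DKO1 curves lie above those of HCT116 outside the border and below them 0.36 Mb inside.

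Longer early domains had a higher mean share in early cells of both lines. In cells at 20 to 30% progress, the 91 longest of the 262 domains (2.16 to 8.96 Mb) had a mean share of 75.02% in HCT116 and 75.4% in DKO1. The 81 shortest (0.8 to 1.2 Mb) had 64.9% and 61.2%, and the 90 between them 66.7% and 62.9%. The longest domains thus differed by 0.37 points between the lines, and the shortest by -3.75 points. A short domain holds a larger part of its bins near a border, where shares are lower. In HCT116 cells at 20 to 30% the share was 33.6% at 0.04 Mb inside and 76.7% at 0.6 Mb inside. The part of these border bins in the differences by size was not tested, so the means do not show that size goes with the order.

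The third question was where single regions left the shared order. A bin was counted as different where its matched share differed by at least 15 points, which held for 9.27% of bins in the direction of DKO1 and 8.87% in that of HCT116. Runs of at least 5 such bins gave 177 regions higher in DKO1 (120 Mb in all) and 184 regions lower in DKO1 (129 Mb). Without matching of progress there were 256 higher and 103 lower ones. With matching kept there were 328 and 274 at a limit of 10 points, and 324 and 297 for runs of at least 3 bins. In low-code-0 cells (30 to 40% only) there were 195 and 190. The balance of both directions thus depends on the matching, on these limits and on the cells kept. Both kinds had a median length of 0.56 Mb. Since they were picked for their difference in these cells, their values are a description, and the cells at 40% or over, from the same libraries, are the only check at hand.

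Regions that lagged in DKO1 were mostly copied by HCT116 within the window. Of the 184, 155 had a matched share of at least 50% in HCT116, and 123 were under 50% in DKO1. All 184 were also lower in DKO1 in the cells at 40% or over, by a median of -11.0 points, and 69 of them by at least 15 points. In those cells the earliest 30% of all bins had a mean share of 97.8% in HCT116 and 95.3% in DKO1. The middle 40% had 69.7% and 64.7%. Within the middle 40%, class 4 had 91.03% and 83.2%, while class 7 had 43.5% and 44.9%. The differences of the 184 regions thus stand against a mostly lower background, whose part in them was not tested. Among the 10 named, the widest gap was at chr12:88400001-89760000. HCT116 had a matched share of 80.9% there and DKO1 one of 21.2%, and most of it was replicated in 76 of 87 HCT116 cells (87.4%, interval 78.5 to 93.5%) and 12 of 55 DKO1 cells (21.8%, 11.8 to 35.01%). In DKO1 cells at 40% or over it was still at 70.3%, against 97.9% in HCT116.

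Next by the width of the gap was chr10:53680001-54720000, with 73.1% in HCT116 and 19.1% in DKO1, followed by chr1:55520001-57280000, with 60.7% and 14.4%. At chr1:198800001-200800000 the shares were 56.9% and 13.5%, and the greater part of it was copied in 54 of 87 cells of HCT116 and 1 of 53 of DKO1 (1.89%, interval 0.0478 to 10.1%). It had not caught up in the cells at 40% or over, with 86.4% and 47.1%. A different course was seen at chr1:84240001-85600000, where the share was 85.8% and 47.7% in early cells and 98.8% and 91.6% in later ones. The remaining named regions, on chromosomes 11, 2, 1, 6 and 2, had matched shares of 51.1 to 89.9% in HCT116 and of 15.7 to 55.2% in DKO1.

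Regions higher in early DKO1 cells had a smaller lead later in S phase. Of the 177, 130 were higher and 47 lower in DKO1 in the cells at 40% or over, with a median difference of 4.74 points, and 85 differed there by less than 5 points. Over all bins of classes 1 to 3 and 4 to 7 DKO1 was lower in those cells, as given above for the lagging regions. The median of 4.74 points thus stands against a lower background. By the median class of their bins 113 of the 177 lay in classes 4 to 7 of the order described above, 53 in classes 1 to 3 and 11 in classes 8 to 10. Apart from chr3:55280001-55920000, the regions in classes 8 to 10 were all on chromosome 11. Without outlying chromosomes those on chromosome 11 differed by only -1.27 to 3.98 points, so they rested on the outlying cells. The region on chromosome 3 differed by 12.5 points without outlying chromosomes. Classes 4 to 7 hold the middle 40% of bins and the other groups 30% each. Of the 184 regions lower in DKO1, 98 lay in classes 4 to 7, 86 in classes 1 to 3 and 0 in classes 8 to 10. A difference of 15 points has less room where shares are near their lowest or highest possible values. How far this limit sets the counts by class was not tested. At chr3:46000001-46960000 HCT116 had a matched share of 32.6% and DKO1 one of 73.9%. The greater part of it was copied in 16 of 87 HCT116 cells (18.4%, interval 10.9 to 28.1%) and 41 of 52 DKO1 cells (78.8%, 65.3 to 88.9%). In cells at 40% or over it stood at 92.3% and 97.3%. At chr1:41760001-42880000 it was 51.3% and 88.1% in early cells and 97.6% and 96.1% later. Both regions were thus ahead in early DKO1 cells and copied in over 90% of the later cells of each line.

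Chromosome 3 held 4 of the 10 named regions higher in DKO1. Besides the one above, they were chr3:15920001-17680000 (8.62 and 34.6%), chr3:36640001-37920000 (31.6 and 67.0%) and chr3:125760001-127200000 (27.7 and 54.9%). Code 0 took 5.72% of early DKO1 calls on that chromosome and 0.252% of HCT116 calls. Chromosome 4 held chr4:5200001-6480000 (14.1 and 44.96%) and chr4:7120001-8480000 (28.6 and 59.6%). At chr1:111040001-112720000 the shares were 30.2% and 60.2%. The region at chr9:3120001-4480000 had 9.11% in HCT116 and 40.3% in DKO1, and it kept a lead in later cells (58.0 and 75.3%). At chr11:104320001-106560000, with 2.72% and 23.1%, the difference of 20.3 points fell to 3.98 points without outlying chromosomes, so this region rested on the outlying cells. The other 9 differed by 21.998 to 39.6 points without outlying chromosomes. Chromosome 11 carried 28 of the 177 regions, covering 19.2% of its bins, and 10 regions were found there without outlying chromosomes.

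**Figure D3:**
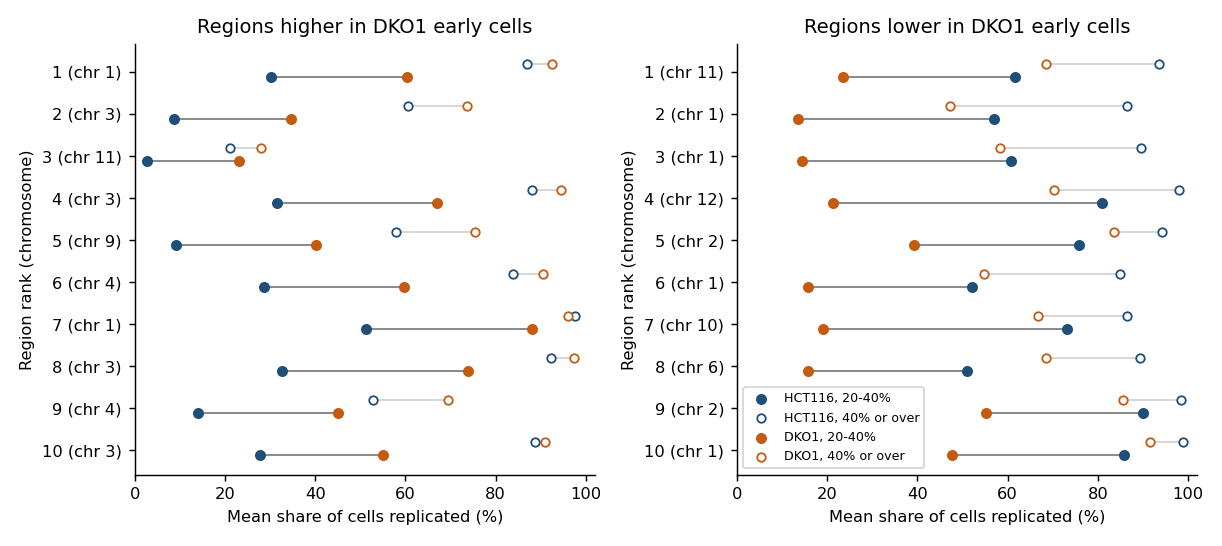
Mean replicated share (percent) of the 10 named regions higher in DKO1 (left) and the 10 lower in DKO1 (right), by rank and chromosome, in HCT116 (blue) and DKO1 (orange). Filled points are the matched share of cells at 20 to 40% progress and open points the share in cells at 40% or over. The open points of the regions higher in DKO1 lie close together, except on chromosomes 3 (rank 2), 9 and 4 (rank 9), and those of the lower regions differ by -7.27 (rank 10) to -39.3 points.

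The last question was how variably single cells follow the order. Copied sets of bins were less alike among DKO1 cells than among HCT116 cells, and more so later in the window. Between cells of a line within 5 points of progress, 16.4% of bins differed in HCT116 (SD 1.11 over 497 pairs of 34 cells) and 19.4% in DKO1 (SD 2.78 over 48 pairs of 12 cells) at 20 to 30%. Among cells at 30 to 40% it was 17.6% (SD 1.91, 896 pairs of 49 cells) and 23.1% (SD 3.54, 654 pairs of 42 cells). A cell of HCT116 and a cell of DKO1 differed in 19.1% of bins at 20 to 30% and in 21.6% at 30 to 40%. A pair of DKO1 cells was thus on average no more alike than a DKO1 and an HCT116 cell. Among low-code-0 cells the values at 30 to 40% were 16.5% in 30 HCT116 cells and 19.8% in 14 DKO1 cells.

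The excess was spread over the classes unevenly. In cells at 30 to 40% progress, 7.02% of the bins of class 1 differed between HCT116 cells and 10.2% between DKO1 cells, while at 20 to 30% the values were 15.7% and 15.9%. In class 4, where copying was in full course, it was 42.2% and 47.05% at 30 to 40%. In points the gap was widest in the middle 40% of bins, with 27.4% and 34.1%, and the earliest 30% had 19.6% and 23.9%. In the latest 30% it was 2.61% and 7.54%, which largely restates the higher share of copied late bins, since at low shares discordance follows the share. The same applies within the middle 40% to class 7, with shares of 5.63% and 10.95% and discordance of 9.92% and 19.1%. In class 5, where the shares were closer (28.8 and 30.3%), discordance was 35.9% and 40.7%. Bins copied in 20 to 80% of cells made up 25.2% of bins in HCT116 and 26.5% in DKO1 at 20 to 30%, and 26.1% and 34.0% at 30 to 40%.

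Each cell was also given an order score, the percent of all pairs of a replicated and an unreplicated bin in which the replicated one is the earlier in its own line's cells at 40% or over. At 20 to 30% the 34 HCT116 cells scored 90.5 to 94.5 (median 93.0) and the 12 DKO1 cells 84.5 to 93.7 (median 90.7). At 30 to 40% the 49 HCT116 cells scored 82.3 to 95.9 (median 94.2) and the 42 DKO1 cells 79.6 to 95.04 (median 90.5). The ranges overlapped, and the best DKO1 cells kept to the order as well as most HCT116 cells. Under 90 were 18 of 42 DKO1 cells (42.9%, interval 27.7 to 59.04%) and 3 of 49 HCT116 cells (6.12%, 1.28 to 16.9%) at 30 to 40%. Among cells at 20 to 30% it was 4 of 12 DKO1 cells and 0 of 34 HCT116 cells (exact interval 0 to 10.3%). A limit of 3 counts for a count of 0 would allow a share of up to 8.82%. The score moved with code 0: at 30 to 40% low-code-0 cells had medians of 94.8 (HCT116) and 93.5 (DKO1), and the others 92.9 and 89.3. The part of code 0 in the score was not tested. With outlying chromosomes left out the medians, averaged over both strata, were 93.9 for HCT116 and 92.3 for DKO1, a gap of -1.60 points against -2.95 with them.

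**Figure D4:**
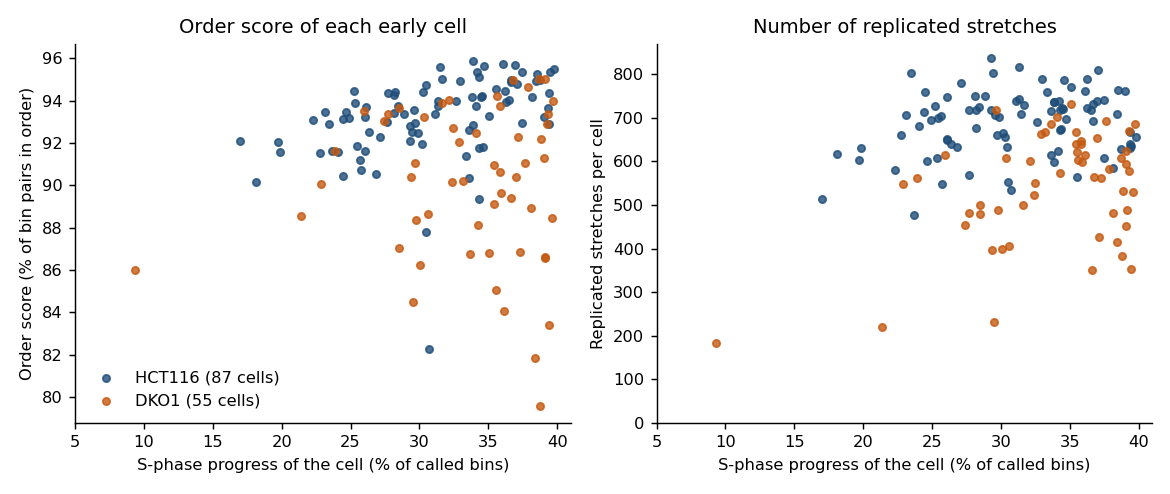
Order score (left, percent of pairs of a replicated and an unreplicated bin that follow the order of the line's later cells) and number of replicated stretches (right) of each early cell against its S-phase progress, for 87 HCT116 cells (blue) and 55 DKO1 cells (orange). DKO1 cells spread down to 79.6 in score and mostly lie below HCT116 cells in the number of stretches.

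DKO1 cells held a like amount of copied DNA in fewer and longer called stretches. The number and length of stretches also depend on read depth per cell and on the smoothing of the state calls, which are unknown for both libraries, and their part in the difference was not tested. At 20 to 30% progress the number of replicated stretches per cell ran from 477 to 837 in HCT116 (median 702.5) and from 221 to 719 in DKO1 (median 485). In the next stratum, at 30 to 40%, it ran from 535 to 817 (median 715) and from 350 to 732 (median 596.5). The median stretch of the median cell was 560 kb in HCT116 and 800 kb in DKO1 at 20 to 30%, and 720 kb and 880 kb at 30 to 40%. The weighted mean number was 692 for HCT116 and 522 for DKO1, a gap of -171 stretches. Among low-code-0 cells at 30 to 40% the means were 707 (SD 65.7) and 625 (SD 65.2).

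Early domains were more often called copied as a whole, and more often not at all, in DKO1. The state of a domain in a cell was read from its called bins only. Like the stretches, it also depends on read depth and on the smoothing of the state calls, whose part was not tested. Over the 262 early domains, a mean of 9.58% per cell were wholly replicated in HCT116 (SD 4.17 over 34 cells) and 18.5% in DKO1 (SD 8.12 over 12 cells) at 20 to 30% progress. Untouched were 2.76% (SD 2.08) and 11.3% (SD 10.3). Partly copied domains made up 87.7% in HCT116 and 70.2% in DKO1. Further on, at 30 to 40%, 29.4% (SD 11.2) were whole in HCT116 and 36.4% (SD 10.9) in DKO1, and 1.55% (SD 1.996) and 4.196% (SD 4.40) were untouched. In the least advanced stratum the share of untouched domains ranged from 0.382 to 9.84% over HCT116 cells and from 4.21 to 37.9% over DKO1 cells. Among low-code-0 cells at 30 to 40%, 29.99% of domains in HCT116 and 35.1% in DKO1 were whole, and 0.687% and 1.20% were untouched. The surplus of untouched domains was thus far smaller in such cells.

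**Figure D5:**
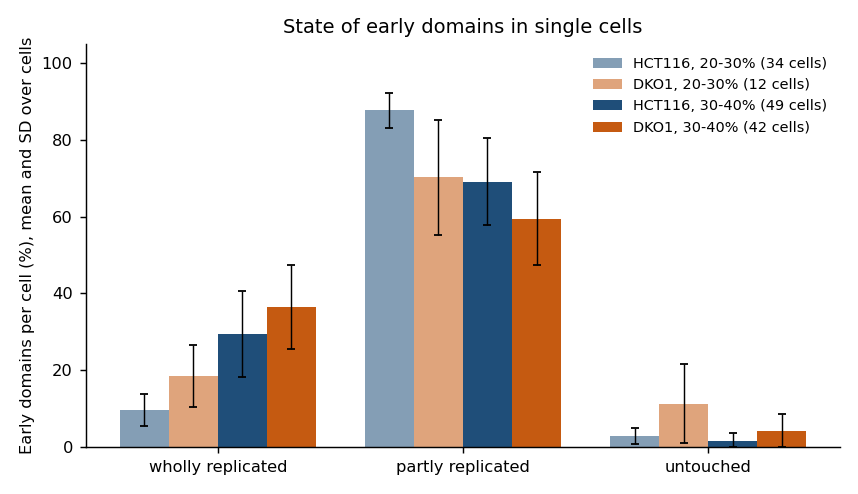
Percent of the 262 early domains that were wholly replicated, partly replicated or untouched in a cell, as the mean over cells with the SD over cells as error bars (cut at 0), for HCT116 (blue) and DKO1 (orange) cells at 20 to 30% (light) and 30 to 40% (dark) progress. The partly replicated share is lower, and both others are higher, in DKO1 in each stratum.

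Chromosomes as wholes also kept less closely to the cell's progress in DKO1. The SD over early cells of a chromosome's distance from its relation to progress had a median over the 21 chromosomes of 3.28 points in HCT116 and 6.85 points in DKO1, and it was larger in DKO1 on 16 of them. It was highest in DKO1 on chromosome 13 (2.99 points in HCT116 and 16.1 in DKO1) and chromosome 11 (3.05 and 14.8). Chromosome 9 went the other way, with 8.68 points in HCT116 and 4.14 in DKO1. So did chromosomes 4 (8.54 and 4.81), 6 (6.06 and 4.62), 15 (9.66 and 9.12) and 21 (8.30 and 7.21). The 4 outlying HCT116 cells on chromosome 9 were 3 above and 1 below the relation.

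The least advanced cell of each line showed the start of the order. The DKO1 cell at 9.32% progress had copied 39.3% of class 1, 22.3% of class 2, 15.4% of class 3 and 0.141% of the latest 30% of bins. Its most copied chromosomes were 17 (30.2%) and 19 (21.8%), and no used bin of chromosome 21 was replicated. The HCT116 cell at 17.0% had copied 75.4% of class 1, 52.6% of class 2, 29.3% of class 3 and 0.0381% of the latest 30%, with chromosomes 22 (65.03%) and 19 (50.5%) ahead and chromosome 4 (7.31%) last. The DKO1 cell held 183 stretches with a median of 720 kb, and the HCT116 cell 513 with a median of 480 kb. As their progress differs, these cells are not compared.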

How the data were processed

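Per the labels' protocols, S-phase cells of both lines were sorted by DNA content, pooled in equal numbers over early, mid and late fractions, and made into single-cell copy-number libraries. The deposited table holds a state code per 80 kb bin and cell. Per the file headers each column is 1 cell of 1 line, and by its name the deposited table holds binarised states from an HMM (hidden Markov model), whose settings were not found in the labels. Builds named in the submitters' processing notes are GRCh37 and hg19, and the tools are bedtools 2.26.0, SAMtools 1.10 and Cell Ranger. The table's last bin of chromosome 1 ends at 249200000, beyond the last protein-coding gene of the GRCh38 table (248930191), so no gene or sequence was assigned to a bin. The G1 libraries were not analysed here.

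Progress was computed over all bins coded 1 or 2. Strata, classes, domains and regions were computed from the codes with Python 3.11.15, numpy 2.4.6, pandas 2.3.3 and scipy 1.17.1, and the functions were tested on simulated data. Classes came from cells at 40% or over, in 10-point strata with at least 5 cells of each line, weighted equally. Runs bridged at most 1 missing or unused bin. The relation of a chromosome to progress was a quadratic fit on the progress of the other chromosomes. The text names, by a rule of size, the 10 first-replicated domains of each line with the highest share at 20 to 30% (longer first where tied) and the 10 regions in each direction with the largest summed difference. Cells, lists and limits were chosen with earlier results of these data known. The lines shared 0 cell barcodes, all columns of cells were used, and no doublet caller was run. With 1 library per line no test was made. Alternatives changed 1 choice at a time: the minimum of calls per bin, the reading of code 0, the cells kept, outlying chromosomes, the limit of progress, the matching, the order of bins, the pair window and the limits of shares, differences and runs.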

Additional observations from a re-analysis of the deposited data

Results flagged for a closer look

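Code 0, which the comparisons treat as not called, stood out because it was more frequent in DKO1 early cells than in the parental ones. It took 2.91% of their calls, against 1.22% in HCT116, a ratio of 2.39. Unbroken runs covering 50 or more bins (4 Mb) occurred in 42 of 55 DKO1 cells (76.4%, exact 95% interval from 63.0 to 86.8%), while 40 of 87 HCT116 cells had one (46.0%, from 35.2 to 57.002%). It was more frequent in late bins: 3.73% of DKO1 and 1.30% of HCT116 calls in the latest 30% of all bins, against 1.70% and 0.566% in the earliest 30%. By chromosome it reached 8.58% on chromosome 13 in DKO1 (0.942% in HCT116), and chromosomes 6, 15 and 18 went the other way (1.16 against 1.95%, 1.05 against 1.74% and 1.61 against 2.50%). In the cells at 40% or over it was 2.77% in DKO1 and 1.03% in HCT116. Its part in the results was not tested.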

How the results depend on the processing

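Of 99 alternatives, 1 turned its result's direction. Those on the numbers of first-replicated bins and of regions have no direction and could not turn. Sizes moved as follows. The difference in the earliest 30% of bins was 0.625 points without matching of progress and -4.63 to -1.86 points otherwise. The latest 30% differed by 1.17 to 2.52 points, pairs of cells by 3.15 to 5.85 points and the order score by -3.25 to -1.60 points. The number of first-replicated bins was 1076 in HCT116 and 806 in DKO1 with bins called in at least 99% of early cells (6266 bins), 5161 and 4459 with low-code-0 cells (30 to 40% only, 27617 bins), and in DKO1 4052 at a limit of 80% and 1587 at 95%. Regions higher and lower in DKO1 numbered 43 and 47 with the 99% bins, 95 and 103 at 20 points, 324 and 297 for runs of at least 3 bins, and 83 and 89 for runs of at least 8. At 10 points there were 328 higher and 274 lower ones, and with low-code-0 cells 195 and 190. Without matching there were 256 higher and 103 lower ones, against 177 and 184. Stretches per cell differed by -48.4 with the 99% bins and by -82.1 in low-code-0 cells. The settings on whole and untouched domains (5.01 to 11.4 and 0.52 to 6.36 points) and the one with stretches of at least 3 bins (-126) were chosen after seeing the data. Other causes of these changes were not tested. No paired analysis was possible because each line is 1 library with no replicate number. With 1 library per line no replicate could be left out. The 12 DKO1 cells at 20 to 30% limit every value of that stratum.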

Other observations

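The early cells with the lowest order scores differed in their number of outlying chromosomes. In DKO1 the lowest, at 79.6 and 38.8% progress, had 11 outlying chromosomes, with chromosome 11 the farthest at 51.8 points above its relation to progress, while code 0 took 1.38% of its bins. The fourth lowest, at 84.05, had 6, with chromosome 13 at 56.0 points above, and the others among the 5 lowest had 3, 2 and 3. In HCT116 the 3 cells under 90 had 5, 4 and 2 outlying chromosomes, and the farthest were chromosomes 6 (48.2 points above), 9 (64.3) and 4 (71.6). The next lowest HCT116 cell, at 90.2, had 0. In the 3 cells under 90 code 0 took 5.01, 4.16 and 3.996% of bins.

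The 262 early domains differed between the lines in both directions. At 20 to 30% progress 121 had a higher share in DKO1 and 141 a lower one, with a median difference of -0.74 points and a range from -38.9 to 29.8 points. At 30 to 40% it was 106 and 156, with a median of -1.70 points, and 215 of them lay within 10 points.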
